A study of Mus musculus with 48 samples.

Results

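The heat shock protein genes examined here are 10 mouse genes chosen by symbol: Hspa1a, Hspa1b, Hspa8, Hsph1, Hsp90aa1, Hsp90ab1, Dnajb1, Bag3, Hspb1 and Hsf1. All 10 were found among the 50600 genes counted, and all 10 passed the filter on low counts that left 13889 genes to test. Heat shock proteins are chaperones, which hold or refold unfolded proteins. HSP70 proteins bind exposed hydrophobic stretches and cycle with ATP, J-domain proteins bring them their clients, and HSP110 and BAG proteins release the bound nucleotide. HSP90 proteins act later, on nearly folded clients such as kinases and steroid receptors, and small heat shock proteins hold unfolded proteins without ATP. Under stress the transcription factor HSF1 forms trimers, binds heat shock elements in promoters and raises the transcription of many of these genes, and cancer cells commonly contain much of these chaperones without any heat.
The cells were mPDAC, a mouse pancreatic ductal adenocarcinoma line of FVB/N x C57BL6 background. The treated cultures received 50 µM N6L, a synthetic ligand and antagonist of the nucleolar and cell surface protein nucleolin, for 48 h, and the controls were not treated. There were 3 non-treated cultures, numbered 1, 2 and 4 in the labels, and 3 N6L cultures, numbered 1, 2 and 3, all of the same line. Each culture gave a library of polyadenylated RNA from its cytoplasm, with nuclei and mitochondria removed, and another from the polysomal fractions of a sucrose gradient loaded with the same lysate, 12 libraries in all. Values listed for 3 cultures below always follow the order of these numbers.
Levels are given as CPM, the counts of a gene per 1000000 counts of its library, scaled between libraries by the TMM method, with the mean ± SD over 3 cultures. Total counts ran from 19519911 to 44972333 per library, and the 4 technical replicates of each library were summed. One label field names culture 1 for 3 of the cytoplasmic replicates of N6L culture 2. They stayed with culture 2, since their chi-square against its remaining replicate was 1.02 to 1.04 per degree of freedom and against a replicate of culture 1 12.2 to 12.4. Changes are log2 changes from edgeR's quasi-likelihood test over all 12 libraries, and FDR is the Benjamini-Hochberg adjusted p over all 13889 genes, with a limit of 0.05. Every value is a share of its library, and in such bulk samples fewer cells that express a gene and less RNA per cell cannot be told apart. Of 9 ductal epithelial markers 7 were tested, with a summed level of 6522 to 10746 CPM, while Epcam and Cldn4 stayed under 1 CPM in every library. The summed fibroblast, leukocyte and endothelial markers reached at most 2.43 CPM in any library, and the acinar markers 34.0 to 45.6 CPM in non-treated and 30.1 to 39.7 CPM in N6L cytoplasm, and 42.2 to 59.5 and 44.8 to 86.8 CPM in the polysomes, nearly all of it Cela1. Its part in the results was not tested.

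HSF1 binds repeats of GAA and its inverse TTC, so the 250 bases before the transcription start were searched on both strands for GAANNTTC and TTCNNGAA, each of which reads the same on either strand. RefSeq promoters of GRCm38.p6 were at hand for 6 of the 10 genes, and 4 of the 6 held at least 1 match, against 12.8% of the 32800 promoter windows of all genes. For each of the 4 genes 1 match is printed in capitals with 20 bases on either side, on the gene's strand. The 2 inducible HSP70 genes are the same there, with the form GAANNTTC. Hspb1 holds this form with other inner bases, and Hsph1 holds the form TTCNNGAA.
Hspa1a: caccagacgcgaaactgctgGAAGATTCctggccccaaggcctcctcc
Hspa1b: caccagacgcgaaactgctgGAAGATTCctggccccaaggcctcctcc
Hsph1: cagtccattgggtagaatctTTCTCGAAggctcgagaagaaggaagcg
Hspb1: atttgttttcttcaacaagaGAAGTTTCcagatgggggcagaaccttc
The windows lie at chr17:34972233-34972280, minus strand, for Hspa1a, chr17:34959315-34959362, minus strand, for Hspa1b, chr5:149636342-149636389, minus strand, for Hsph1 and chr5:135887782-135887829, plus strand, for Hspb1. Counted from the RefSeq start, the match starts 104 bases before it in both Hspa1a and Hspa1b and 33 bases before it in Hsph1. In Hspb1 it starts at 117, and another match, GAACCTTC, at 97. The latter forms the end of the printed Hspb1 window, in lower case. The RefSeq starts of Hsph1, Dnajb1 and Bag3 lie 40, 18 and 33 bases from those of the GENCODE gene spans given below. The Hsph1 match lies inside that span and not before it. The 250 bases of Hspa1a and Hspa1b differ at 3 positions, and the printed windows are identical. Dnajb1 and Bag3 held no match in these 250 bases, and none of the 6 promoters held the longer form, in which another unit follows in the same alternation and spacing, found in 0.466% of all windows. A match is a description of the letters and says nothing of binding in these cells.
On GRCm38 the inducible HSP70 genes lie next to each other, Hspa1a (ENSMUSG00000091971, chr17:34969190-34972156, minus strand), which overlaps Gm20481 on the opposite strand, and Hspa1b (ENSMUSG00000090877, chr17:34956436-34959238, minus strand). The constitutive HSP70 gene is Hspa8 (ENSMUSG00000015656, chr9:40800984-40810087, plus strand), and the HSP110 gene Hsph1 (ENSMUSG00000029657, chr5:149614287-149636376, minus strand). The HSP90 genes are Hsp90aa1 (ENSMUSG00000021270, chr12:110690605-110702728, minus strand) and Hsp90ab1 (ENSMUSG00000023944, chr17:45567775-45573271, minus strand). The cochaperones are Dnajb1 (ENSMUSG00000005483, chr8:83608193-83612653, plus strand) and Bag3 (ENSMUSG00000030847, chr7:128523616-128546981, plus strand), the small heat shock protein gene is Hspb1 (ENSMUSG00000004951, chr5:135887919-135889563, plus strand), and the factor is Hsf1 (ENSMUSG00000022556, chr15:76477422-76501913, plus strand).
Several of these genes share long stretches of transcript with copies elsewhere in the genome. How the study counted reads with several positions is not stated in its methods or labels, and counts of such genes are uncertain to that extent. Of the 50-base stretches of the longest coding transcript, 60.4% in Hspa1a and 62.3% in Hspa1b also occur in a transcript of another gene, above all in each other. The share was 73.2% in Hspa8, 58.5% in Hsp90aa1 and 51.6% in Hspb1, most often with a pseudogene. It was 4.49% in Hsp90ab1, 0.407% in Dnajb1 and 0 in Hsph1, Bag3 and Hsf1.

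In non-treated cytoplasm the constitutive chaperones were far above the inducible ones. Per kilobase of coding transcript, Hsp90ab1, the constitutive HSP90, stood at 1019.8 ± 29.2 CPM and Hspa8, the constitutive HSP70 known as HSC70, at 504 ± 45.5 CPM (SD, n = 3 each). The small heat shock protein Hspb1 followed with 121 ± 54.3 CPM per kilobase and the factor Hsf1 with 65.5 ± 3.86. Then came the inducible HSP90 gene Hsp90aa1 (48.1 ± 15.4), Dnajb1 (37.0 ± 1.11), Bag3 (29.2 ± 2.5) and Hsph1 (17.9 ± 2.25 CPM per kilobase). Of all neighbours in this order only Hsf1 and Hsp90aa1 overlapped between libraries. The order depends on the length used, which for Hsf1 was 2104 bases, against 7099 for the union of its exons. Genes with shared stretches also carry the uncertainty of counting given above, so close ranks are not firm in any group. The inducible HSP70 genes were last, Hspa1b at 1.89 ± 0.357 and Hspa1a at 0.349 ± 0.0423 CPM per kilobase, and they rested on few reads. Hspa1a had 19 to 32 counts in the non-treated cytoplasmic libraries and 117 to 126 in the N6L ones.
The order was nearly kept in the other groups. Hsp90ab1, Hspa8 and Hspb1 led, and Hsph1, Hspa1b and Hspa1a came last, in all 4 combinations of fraction and treatment. In N6L cytoplasm Hsp90aa1 reached 85.7 ± 14.8 CPM per kilobase and stood above Hsf1 (51.5 ± 3.09) without overlap. In N6L polysomes it stood at 32.0 ± 16.0, overlapping Bag3 above it and Hsph1 below it.

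**Figure D1:**
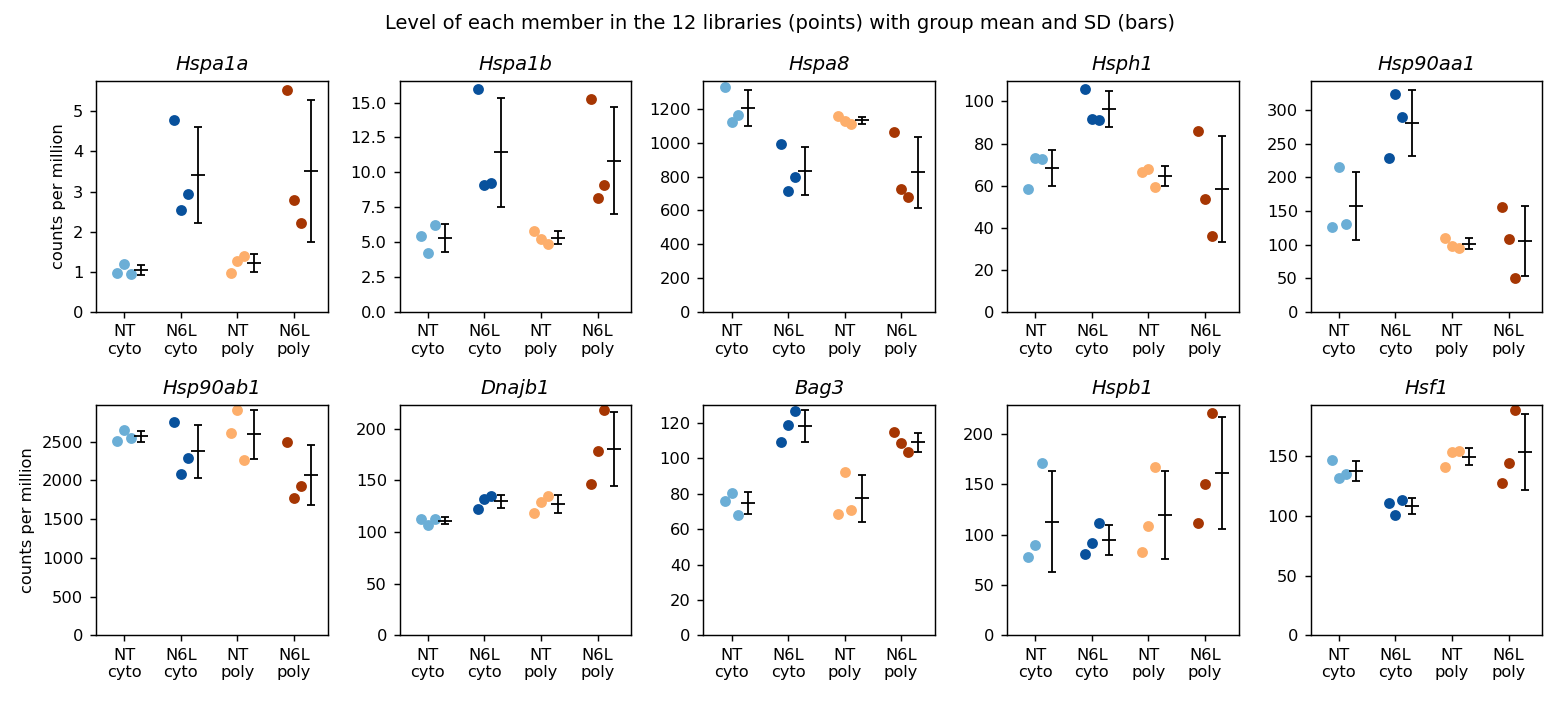
Level of each of the 10 genes in CPM (y axis, from 0) in the 3 libraries of each group (x axis: non-treated and N6L, cytoplasm and polysomes), with the group mean and SD as bars. Hspa1a, Hspa1b, Bag3 and Dnajb1 are above the non-treated libraries in all N6L libraries of both fractions, Hspa8 is below them, and Hsp90aa1 and Hsph1 are above them in the cytoplasm only.

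In the cytoplasm these genes did not move together. Hspa1a, Hspa1b and Bag3 rose and Hspa8 fell, 4 of 10 genes at an FDR under 0.05, while 28.3% of all genes tested passed the same limit, 14.5% as higher and 13.8% as lower. Libraries of the N6L cultures lay all above the non-treated ones for 6 genes and all below for 2, where 29.3% and 25.6% of all genes did so. The median log2 change was 0.36 over the 10 genes and 0.042 over all genes tested. With N6L culture 2 left out 2 genes passed, Hspa1a and Hspa1b, and 9.24% of all genes.
The inducible HSP70 genes, which heat shock switches on, had the steepest increases of the 10. Hspa1a stood at 0.977, 1.18 and 0.951 CPM in the non-treated and at 4.78, 2.54 and 2.94 CPM in the N6L cultures. Hspa1b stood at 5.43, 4.22 and 6.21 against 16.0, 9.11 and 9.26 CPM. For both genes the groups did not overlap, and N6L culture 1 was the highest library by a wide margin. Hspa1a rose from 1.04 ± 0.125 to 3.42 ± 1.20 CPM, a log2 change of 1.71 (standard error 0.36, FDR 0.00535), or 3.27-fold. Hspa1b rose from 5.29 ± 1.00 to 11.4 ± 3.91 CPM, a log2 change of 1.11 (standard error 0.27, FDR 0.0109). With the counts of both genes summed, so that a read assigned to either one counted alike, the log2 change was 1.23 (FDR 0.00663). The call of Hspa1a held without any one culture (1.40 to 1.84), and that of Hspa1b was lost, of the 6 cultures left out in turn, only without non-treated culture 2, at 0.97 (FDR 0.0521).
Hspa8, whose protein folds new chains and uncoats clathrin vesicles in unstressed cells, went the other way. It stood at 1330.2, 1126 and 1163 CPM in the non-treated and 993, 717 and 798 CPM in the N6L cultures. Every N6L library was below every non-treated one. The fall, from 1206 ± 109 to 836 ± 142 CPM, had a log2 change of -0.53 (standard error 0.18, FDR 0.0412) and lies close to the limit. It was not past it with scaling by library totals only (-0.39, FDR 0.131), nor without any 1 of non-treated cultures 1, 2 and 4 or N6L cultures 2 and 3 (FDR 0.0666 to 0.152).
Among the 10 genes, both partners that release nucleotide from HSP70 were higher in all N6L cultures, though only one passed the test. The exchange factor Hspbp1, not one of the 10, fell in the cytoplasm and is given below. Bag3, which also links HSP70 to small heat shock proteins and to autophagy, stood at 75.8, 80.5 and 67.8 against 109, 119 and 127 CPM. It rose from 74.7 ± 6.41 to 118 ± 8.81 CPM, a log2 change of 0.66 (standard error 0.15, FDR 0.00724), and the call was lost without N6L culture 2, at 0.61 (FDR 0.0623). Hsph1, an HSP110 of the cytosol, stood at 58.3, 73.4 and 72.9 against 106, 91.9 and 91.0 CPM. Its groups did not overlap, but its log2 change of 0.50 (standard error 0.24, FDR 0.123) did not pass the limit. With an offset for gene length (the union of its exons) and GC content the change was 0.14 (FDR 0.544). Fitting only the cytoplasmic libraries gave 0.46 (FDR 0.0219). Dnajb1, the main J-domain partner of inducible HSP70, was also higher without overlap but by less, at 113, 107 and 113 against 123, 132 and 135 CPM, with a log2 change of 0.23 (standard error 0.15, FDR 0.264).
Of the HSP90 genes neither passed the test, although the inducible one was higher in all N6L cultures. Hsp90aa1 stood at 126, 216 and 131 CPM in the non-treated and at 229, 325 and 289 CPM in the N6L cultures. The lowest N6L library was just above non-treated culture 2, the highest of its group. Its log2 change of 0.83 (standard error 0.31, FDR 0.0599) missed the limit, and DESeq2 called it at 0.80 (FDR 0.0423). The offset for length and GC content gave 0.71 (FDR 0.0456) and scaling by library totals 0.97 (FDR 0.0519). Hsp90ab1 stood at 2509, 2652 and 2549.7 against 2748, 2086 and 2294 CPM, with overlapping groups and a log2 change of -0.11 (standard error 0.16, FDR 0.620).
Neither the small heat shock protein nor the factor passed the test. Hspb1 stood at 78.2, 89.7 and 171 against 81.2, 91.5 and 111 CPM, and its log2 change was -0.25 (standard error 0.32, FDR 0.568). The spread within the non-treated group, where culture 4 was about as high as the other cultures together, was larger than the difference. Hsf1 stood at 147, 132 and 135 against 111, 101 and 113 CPM, each N6L library below each non-treated one. Its log2 change was -0.35 (standard error 0.15, FDR 0.0991) and became -0.38 (FDR 0.0475) with DESeq2. It was -0.62 (FDR 0.00651) with the offset for length and GC content and -0.21 (FDR 0.257) with scaling by library totals.

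**Figure D2:**
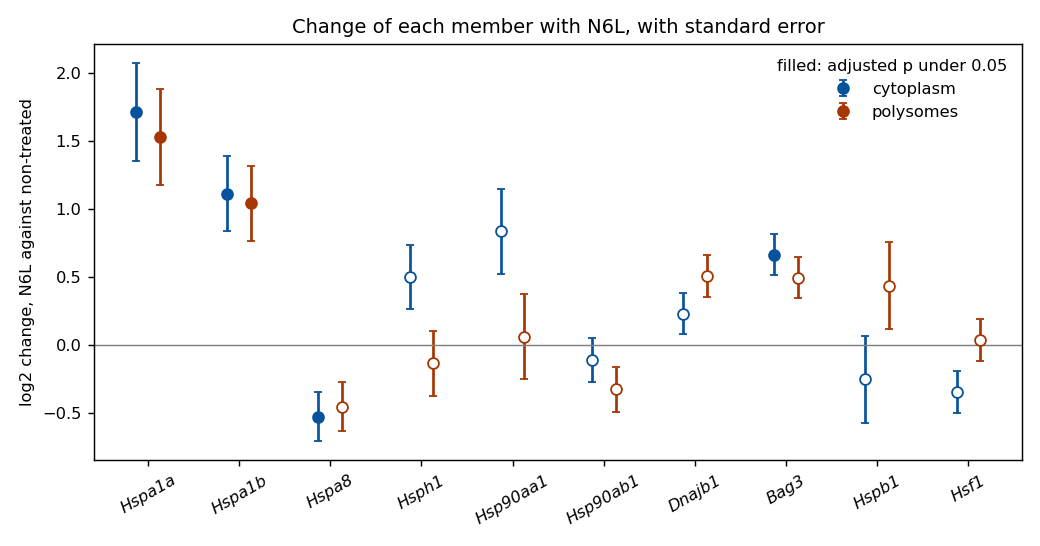
Log2 change of each gene between N6L and non-treated cultures (y axis) in the cytoplasm and in the polysomes, with the standard error of the fit as bars and filled points where the FDR is under 0.05. Hspa1a and Hspa1b are filled in both fractions, Bag3 and Hspa8 in the cytoplasm.

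In the polysomes the inducible HSP70 genes were again higher. Hspa1a and Hspa1b rose, 2 of 10 genes, where 9.67% of all genes tested passed, 6.01% as higher and 3.66% as lower. Without overlap 4 genes were higher and 1 lower, against 13.7% and 11.9% of all genes. The median log2 change was 0.25 over the 10 genes and 0.00081 over all genes.
Hspa1a stood at 0.955, 1.28 and 1.39 CPM in non-treated and 5.53, 2.79 and 2.21 CPM in N6L polysomes, a log2 change of 1.53 (standard error 0.35, FDR 0.0181). Hspa1b stood at 5.78, 5.24 and 4.88 against 15.2, 8.16 and 9.12 CPM, a log2 change of 1.04 (standard error 0.27, FDR 0.0309). As in the cytoplasm, N6L culture 1 was highest and no N6L library reached down to the non-treated ones. With the counts of both genes summed the log2 change was 1.14 (FDR 0.0204). Both calls were lost without non-treated culture 1, 2 or 4 or N6L culture 2, at an FDR of 0.0520 to 0.104 for Hspa1a and 0.0627 to 0.111 for Hspa1b, with log2 changes of 1.03 to 1.77 and 0.71 to 1.20 over all 6 cultures left out. Hspa1a was also not past the limit with technical replicate a alone (FDR 0.0986). Nor was Hspa1b with only the polysomal libraries fitted (FDR 0.0689) or with an offset for gene length and GC content (FDR 0.0542).
The cochaperones Bag3 and Dnajb1 lay at the limit. Bag3 stood at 68.8, 92.5 and 70.8 against 115, 109 and 104 CPM and Dnajb1 at 118, 129 and 135 against 146, 178 and 218 CPM, both without overlap. Their log2 changes were 0.49 (standard error 0.15, FDR 0.0524) and 0.51 (standard error 0.15, FDR 0.0507), and DESeq2 called both, at an FDR of 0.0140 and 0.0186. Hspa8 stood at 1157, 1131 and 1111 against 1066, 729 and 681 CPM, all N6L libraries being lower, with a log2 change of -0.46 (standard error 0.18, FDR 0.122).
Hsp90aa1 and Hsph1, higher in all N6L cultures in the cytoplasm, were not so in the polysomes. Hsp90aa1 stood at 110.2, 98.0 and 94.6 against 156, 109 and 50.6 CPM and Hsph1 at 66.4, 67.9 and 59.1 against 85.8, 53.7 and 36.2 CPM. For both genes N6L culture 1 lay above all non-treated polysomes and N6L culture 3 below them, so that their log2 changes were 0.059 (standard error 0.31, FDR 0.925) and -0.14 (standard error 0.24, FDR 0.751). Hspb1 and Hsf1 had the reverse order among the N6L polysomes, with culture 1 lowest and culture 3 highest. Hspb1 stood at 82.4, 108 and 167 against 112, 150.5 and 221 CPM, a log2 change of 0.43 (standard error 0.32, FDR 0.417), and Hsf1 at 141, 153 and 155 against 128, 144 and 189 CPM, a log2 change of 0.036 (standard error 0.15, FDR 0.906). Hsp90ab1 stood at 2616, 2904 and 2267 against 2501, 1772 and 1931 CPM, with overlap and a log2 change of -0.33 (standard error 0.16, FDR 0.219).

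How much of each mRNA sat on polysomes, relative to the other mRNAs, was read from the log2 polysome-to-cytoplasm ratio of CPM in each culture, since both libraries come from one lysate. The calls come from the fit of group means, which holds no term for the culture and so does not use this pairing. In N6L cultures 4 of the 10 genes differed between the fractions. Of all genes 39.0% did, 18.4% as higher and 20.6% as lower in polysomes. Hsp90aa1 and Hsph1 were lower in the polysomes, and Dnajb1 and Hsf1 were higher. In non-treated cultures none of the 10 passed and none had an unadjusted p under 0.05 in edgeR's test, where 0.209% of all genes passed, while DESeq2 called 0 with 1 under that unadjusted limit.
Hsp90aa1 had the lowest mean ratio of the 10 in both groups. Its log2 ratio was -0.20, -1.14 and -0.47 in the non-treated and -0.56, -1.57 and -2.51 in the N6L cultures, a fitted difference between the N6L fractions of -1.42 (standard error 0.32, FDR 0.00650), or 2.67-fold lower in polysomes. Without N6L culture 2 it was -1.32 (FDR 0.0564), and none of the 4 genes passed, where 8.22% of all genes did. Hsph1 had log2 ratios of 0.19, -0.11 and -0.30 against -0.31, -0.77 and -1.33, and its fitted difference between the N6L fractions was -0.72 (standard error 0.24, FDR 0.0289). All N6L ratios of Hsph1 were below the non-treated ones, and in both genes the ratio was lowest in N6L culture 3.
Dnajb1 and Hsf1 were on the other side. Dnajb1 had log2 ratios of 0.065, 0.27 and 0.26 against 0.25, 0.44 and 0.69, with a fitted difference between the N6L fractions of 0.48 (standard error 0.15, FDR 0.0247). Hsf1 had log2 ratios of -0.057, 0.22 and 0.20 against 0.21, 0.51 and 0.74, with 0.50 (standard error 0.15, FDR 0.0206). The N6L and non-treated ratios overlapped in both genes. Neither passed with scaling by library totals, without the filter on low counts or with only the N6L libraries fitted (FDR 0.0540 to 0.0807), and with only these libraries Hsph1 had an FDR of 0.0680. Hspb1 had 0.077, 0.27 and -0.029 against 0.46, 0.72 and 0.99, all N6L ratios above the non-treated ones. Its fitted difference between the N6L fractions was 0.77 (standard error 0.32, FDR 0.0708) and passed when the culture was fitted as a block, at 0.72 (FDR 0.00224).
N6L culture 3 was highest or lowest among the N6L cultures for each of these 5 genes. Its log2 ratios also spread most over all genes, with an SD of 1.04 against 0.532 and 0.687 in N6L cultures 1 and 2 and 0.477 to 0.506 in the non-treated ones. Without it the differences between the N6L fractions were -1.06 (FDR 0.0297) for Hsp90aa1, -0.50 (FDR 0.129) for Hsph1, 0.35 (FDR 0.146) for Dnajb1 and 0.36 (FDR 0.124) for Hsf1, so only the first stayed past the limit. The ratio moved with gene length (the union of its exons) and GC content over all genes in every culture. Its Spearman correlation with length was -0.377 to -0.329 in non-treated and -0.572 to -0.517 in N6L cultures. This length is 7099 bases in Hsf1 and 7266 in Hsph1, against 2104 and 3802 for their longest coding transcripts. With an offset for length and GC content, Hsp90aa1 stayed lower in N6L polysomes at -1.16 (FDR 0.00788) and Hsf1 higher at 0.67 (FDR 0.00739). Hsph1 was at -0.31 (FDR 0.200), Dnajb1 at 0.21 (FDR 0.181) and Hspb1 at -0.015 (FDR 0.961). Bag3 was called as lower, at -0.55 (FDR 0.0351).
The ratios of the HSP70 genes overlapped between the groups. The mean log2 ratio of Hspa1a was 0.20 ± 0.28 in non-treated and -0.022 ± 0.33 in N6L cultures, and that of Hspa1b 0.018 ± 0.33 and -0.082 ± 0.069 (SD, n = 3 each). Hspa8 had -0.087 ± 0.11 and -0.034 ± 0.17. Bag3 had 0.041 ± 0.17 and -0.12 ± 0.18, and Hsp90ab1 0.0075 ± 0.16 and -0.21 ± 0.061. With the culture as a block and the offset for length and GC content together, Hspa1b and Hsp90ab1 were called as lower in N6L polysomes, at -0.53 (FDR 0.0139) and -0.42 (FDR 0.00495), and with the block alone they were at -0.083 (FDR 0.641) and -0.21 (FDR 0.0989).

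**Figure D3:**
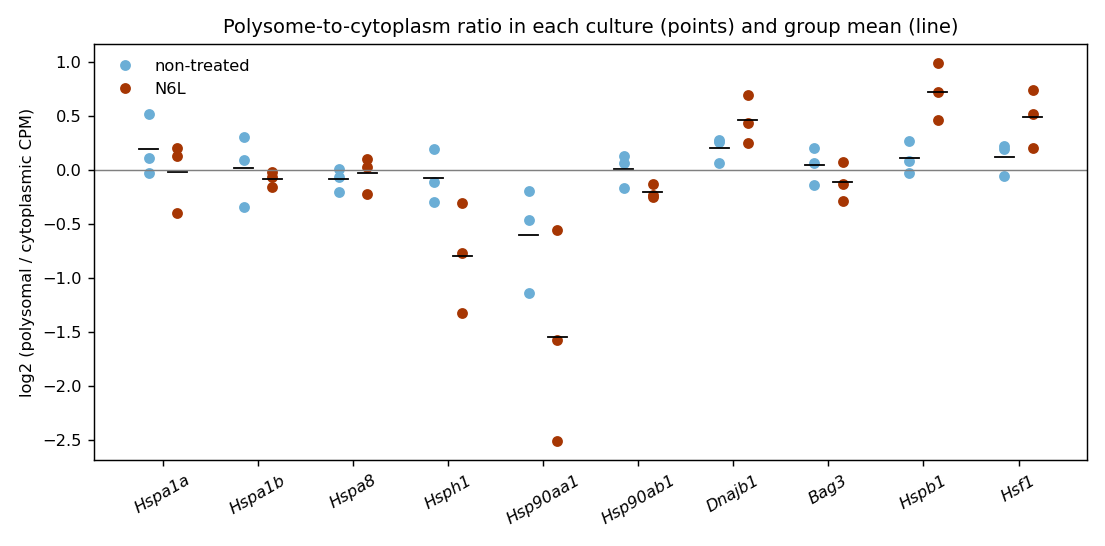
Log2 ratio of polysomal to cytoplasmic CPM (y axis) of each gene in each of the 3 non-treated and 3 N6L cultures (points), with the group mean as a line. Hsp90aa1 and Hsph1 lie below 0 in all N6L cultures, as does Hsp90ab1 by less, and Dnajb1, Hspb1 and Hsf1 lie above 0. The HSP70 genes lie on both sides of 0 or near it, with Hspa1b just below it in all N6L cultures.

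The translational index (TI) compares these ratios between N6L and non-treated cultures. None of the 10 genes passed, and none of all 13889 genes did (0%), by edgeR or by DESeq2, although 1074 genes had an unadjusted p under 0.05 in edgeR's test and 1233 in DESeq2. None of the 10 had an unadjusted p under 0.05 by either tool in these fits, which hold no term for the culture. With the culture as a block, which the shared lysate allows, Hspb1 at 0.62 (FDR 0.196) and Hsph1 at -0.73 (FDR 0.199) had one, as had 2996 of all genes, and again none passed the FDR limit. Block and offset together gave one for Hsf1, Hsp90ab1, Hsp90aa1, Hsph1 and Bag3, at an FDR of 0.216 to 0.261. The log2 TI furthest from 0 were those of Hsp90aa1, -0.78 (standard error 0.44, FDR 0.555), Hspb1, 0.69 (standard error 0.45, FDR 0.561), and Hsph1, -0.64 (standard error 0.34, FDR 0.555). N6L and non-treated ratios did not overlap for Hsph1 and Hspb1 only, 1 gene lower and 1 higher, against 14.4% and 15.3% of all genes. An exact two-sided permutation test over the cultures gave p = 0.1 for each of these, the smallest p that 3 against 3 cultures allow, and p = 0.2 for Hsp90aa1. At this number of cultures a TI of the size seen for Hsp90aa1 was not distinguishable from 0.

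The other genes of the chaperone network were followed in lists of 68 genes, of which 61 passed the filter. In the cytoplasm 3 rose and 14 fell, 27.9% of them against 28.3% of all genes, -0.13 being their median log2 change, and in the polysomes 3 rose and 8 fell, 18.0% against 9.67%, with a median of -0.15. Of the 14 genes that fell in the cytoplasm 5 were HSP90 cochaperones, and the 3 that rose belong to the HSP70 and J-domain families. With N6L culture 2 left out the numbers past the limit were 5 and 0, and with non-treated culture 1 left out 10 and 0, in cytoplasm and polysomes. Of all genes 9.24% and 1.04% then passed without the former, and 16.0% and 1.44% without the latter.
Of 16 HSP90 cochaperones all 16 had a log2 change below 0 in the cytoplasm, as had 47.2% of all genes. The limit was passed by 5 of them, all lower, where 13.8% of all genes were called lower, and the median of the 16 was -0.32. Fkbp4, an immunophilin of steroid receptor complexes, fell from 649 ± 45.6 to 404 ± 31.1 CPM, a log2 change of -0.68 (standard error 0.15, FDR 0.00621). Ahsa1, which activates the HSP90 ATPase, fell from 187 ± 17.2 to 119 ± 7.34 CPM (-0.65, FDR 0.00843). Ptges3, the p23 cochaperone, had -1.01 (FDR 0.00960), Nudc -0.77 (FDR 0.0113), and Stip1, which bridges HSP70 and HSP90, -0.46 (FDR 0.0307). In the polysomes 4 fell, against 3.66% of all genes, Stip1 (-0.66, FDR 0.0135), Ahsa1 (-0.62, FDR 0.0230), Nudc (-0.70, FDR 0.0366) and the immunophilin Ppid (-0.78, FDR 0.0389).
Among 6 tested relatives of HSP70 and HSP110, Hspa2, known from male germ cells, rose in both fractions, by a log2 change of 0.77 (FDR 0.00614) in the cytoplasm and 0.66 (FDR 0.0282) in the polysomes, from 6.13 ± 0.398 to 10.5 ± 0.978 CPM in the former. The distant relative Hspa12b rose in the polysomes (1.63, FDR 0.0414) at a mean of only 0.108 and 0.346 CPM. Of 10 J-domain proteins, Dnajb4 and Dnajb5, close relatives of Dnajb1, rose in the cytoplasm, by 0.92 (FDR 0.0104) and 0.59 (FDR 0.0461). Dnajb5 also rose in the polysomes (0.71, FDR 0.0458), where Dnaja1, a partner of HSC70, fell (-0.64, FDR 0.0495).
Of 8 tested BAG proteins and other HSP70 partners, the nucleotide exchange factor Hspbp1 and the ubiquitin ligase Stub1 fell in the cytoplasm, by a log2 change of -0.72 (FDR 0.0192) and -0.69 (FDR 0.0316), and none passed in the polysomes. Of 4 tested small heat shock genes, Hspb6 and Hspb11 fell in the cytoplasm (-0.55, FDR 0.0448, and -0.94, FDR 0.00679), the second of which codes for a part of the intraflagellar transport complex, and Hspb11 fell in the polysomes (-0.73, FDR 0.0429). Hsbp1, whose protein binds HSF1 trimers, fell in the cytoplasm (-0.66, FDR 0.0219), the one of 4 tested genes of heat shock factors and their binding protein to pass.
Of 8 mitochondrial chaperones, Hspe1, the lid of the HSP60 chamber, fell in both fractions (-1.04, FDR 0.00271, and -0.79, FDR 0.0210) and the disaggregase Clpb in the cytoplasm (-0.51, FDR 0.0339). Hspd1, HSP60 itself, had 0.034 and -0.41 and did not pass. The share of these 8 past the limit was 25.0% in the cytoplasm and 12.5% in the polysomes, against 28.3% and 9.67% of all genes. Of 16 other genes known as HSF1 targets, most of them shared with the lists above, 1 rose and 6 fell in the cytoplasm. Their median there was -0.34, and 14.5% of all genes were called higher and 13.8% lower. In the polysomes 0 rose and 5 fell, with a median of -0.35, where 6.01% and 3.66% of all genes did. Of the targets called, only Cacybp and Serpinh1 were not already named above. Cacybp, a calcyclin-binding protein, fell in both fractions (-0.82, FDR 0.00614, and -0.85, FDR 0.0115), and Serpinh1, the collagen chaperone HSP47, in the cytoplasm (-0.50, FDR 0.0477).

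**Figure D4:**
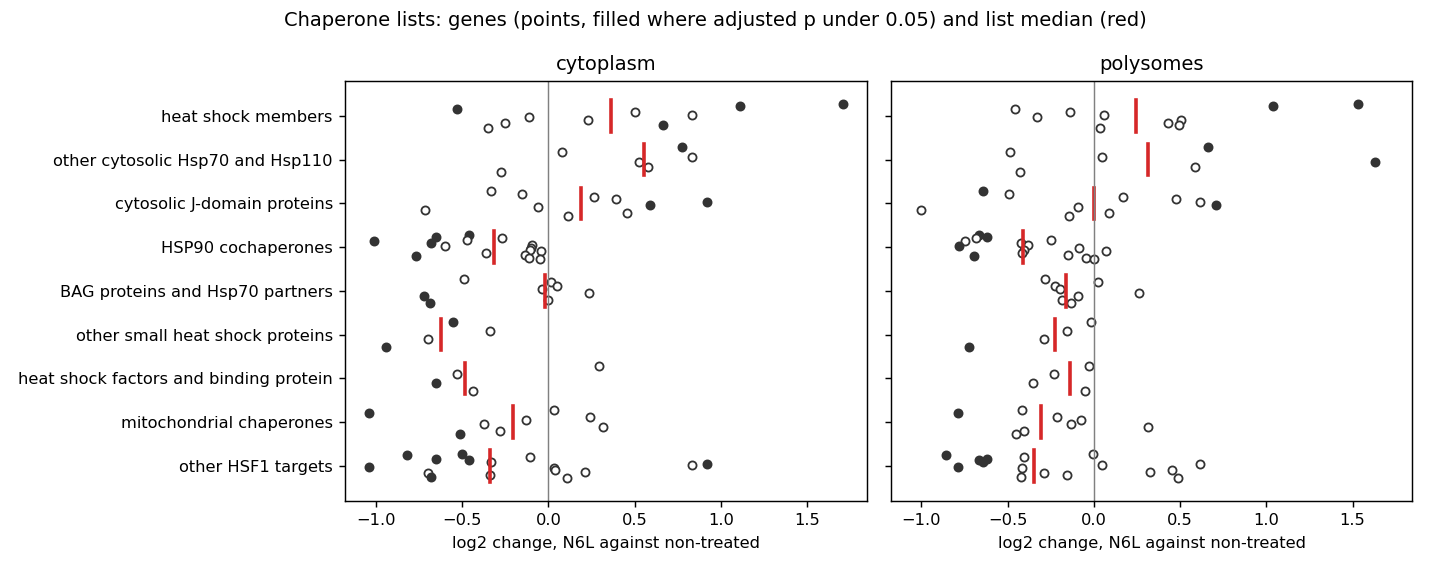
Log2 change between N6L and non-treated cultures (x axis) of each tested gene of the chaperone lists (y axis), in the cytoplasm (left) and the polysomes (right), filled where the FDR is under 0.05, with the list median in red. The 16 HSP90 cochaperones lie below 0 in the cytoplasm, while the inducible HSP70 genes of the top line lie furthest to the right there.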

How the data were processed

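The data are 48 tables of raw counts per Ensembl gene, 4 technical replicates of each of 12 libraries of mPDAC cells. Per the labels and the study's methods, the authors demultiplexed with bcl2fastq 2.18.0.12, aligned to mm10 with STAR and deposited the counts that HTSeq 0.5.3 gave, not normalized. For the annotation release, the strand setting and reads with several positions, nothing is given in the sources used here. Groups came from the labels.
Technical replicates were summed, genes filtered with filterByExpr and libraries scaled by TMM. The quasi-likelihood model of edgeR 4.0.16 (R 4.3.3, glmQLFit and glmQLFTest) held 1 mean for each group and no block. Benjamini-Hochberg adjustment ran over 13889 genes, with a limit of 0.05. The fit was tested on simulated counts drawn for each library by itself, so the pairing of fractions was not part of that test. GENCODE vM21 (GRCm38, the build mm10) gave symbols, positions and lengths for 50376 of 50600 genes, and RefSeq the promoters. Ratios per culture are log2 ratios of CPM with a prior count of 2, compared by exact permutation tests.
Both fractions of a culture came from one lysate and are paired by it. The correlation of their deviations from the group mean was 0.364 to 0.645 for non-treated and 0.0368 to 0.229 for N6L cultures.
The 10 genes and the lists of other chaperones were chosen with earlier results of these data known. Named from those lists were genes past the limit in either fraction or for the index, up to 6 per list by the smallest cytoplasmic FDR, and further Hspa5, Hsp90b1 and the 5 most similar profiles. Hspd1, Hspa4 and Hspa4l were named after their values were seen. Alternatives tried were DESeq2 1.42.0, scaling by RLE size factors or library totals, and dropping the filter or asking 10 counts of every library. Others were using technical replicate a only or dropping those with conflicting labels, omitting each culture, and fitting only the groups compared. The last were a replicate block, and offsets for gene length (the union of its exons) and GC content with and without the block. Nothing says whether the cultures of a group were grown independently, so p-values measure the spread between these cultures.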

Additional observations from a re-analysis of the deposited data

How the results depend on the processing

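Of 850 values of the 10 genes under the alternatives, 767 kept their side of the limit and their direction, 37 lost and 43 gained the call, and 3 reversed, where a change of sign counts as a reversal if the reported value was more than its standard error from 0 or the alternative was called. The reversals were all of Hspb1 under the offset for length and GC content, which gave 0.39 (FDR 0.0149) in the cytoplasm with the replicate block, and -0.015 (FDR 0.961) without and -0.015 (FDR 0.912) with the block for polysomes against cytoplasm in N6L cultures. The cause was not tested.
For the cytoplasm, 7 of the 10 genes instead of 4 were called when only the groups compared were fitted, with the replicate block and with the block and offset, where 42.2%, 34.1% and 36.1% of all genes were called. For the polysomes, instead of 2 genes, 4 were called with library totals, with at least 10 counts in every library and with DESeq2, 5 with block and offset, and 1 with technical replicate a alone or only the groups compared, where 2.46% to 21.2% of all genes were called. Between N6L fractions 2 genes instead of 4 passed with library totals or only the groups compared (35.1% and 33.2% of all genes), 5 with DESeq2 (43.5%) or the block (53.7%) and 6 with block and offset (40.6%), and between non-treated fractions 1 instead of 0, Hsp90aa1, without the filter, at -0.63 (FDR 0.0454). Leaving out 1 culture gave 2 to 5 genes in the cytoplasm, where 9.24% to 28.7% of all genes were called. It gave 0 to 4 in the polysomes (1.04% to 11.2%), 0 to 5 between N6L fractions (8.22% to 41.8%) and 0 for the remaining comparisons (at most 2.38%). The lowest numbers, 2, 0 and 0, were those without N6L culture 2, and the polysomal number was also 0 without non-treated culture 1 or 4, where 4 and 6 of the 10 genes had an unadjusted p under 0.05 in edgeR's test. It was 1 without non-treated culture 2 and 4 without N6L culture 1, and between N6L fractions 1 without N6L culture 3. No alternative called a gene of the 10 for the TI.
Of the 61 other chaperone genes, 17 were called in the cytoplasm (28.3% of all genes). There were 29 with only the groups compared (42.2%) and 26 with block and offset (36.1%). In the polysomes 11 were called (9.67% of all genes), against 20 with DESeq2 (14.6%), 24 with the offset (19.8%) and 22 with offset and block (21.2%). With only the groups compared 0 were called (2.46%), where 17 had an unadjusted p under 0.05 in edgeR's test. Between N6L fractions 20 were called, against 13 with the offset (24.2% of all genes), and between non-treated fractions 0, against 1 without the filter, 1 with the replicate block and 3 with offset and block. Leaving out 1 culture gave 5 to 17 in the cytoplasm, 0 to 11 in the polysomes, 1 to 23 between N6L fractions, and 0 otherwise. Omitting N6L culture 2 left 5 in the cytoplasm and 0 in the polysomes, non-treated culture 1 10 and 0 and culture 4 10 and 2, and non-treated culture 2 left 6 in the polysomes. Between N6L fractions 1 was left on omitting N6L culture 2 and 4 on omitting culture 3.
The block was the culture for comparisons of fractions, and without the offset no call of the 10 genes other than that of Hspb1 changed with it there. Added to the offset it called Hspa1b, Hsp90ab1 and Hsph1 (-0.33, FDR 0.0421) as lower in N6L polysomes as well. For N6L against non-treated cultures only numbers 1 and 2 are shared, and nothing says that they pair cultures. Same-numbered cultures correlated by 0.228 and 0.0455 in the cytoplasm and 0.296 and 0.0076 in the polysomes. With that replicate block Hsp90aa1 (0.99, FDR 0.0338), Hsph1 (0.66, FDR 0.0449) and Hsf1 (-0.44, FDR 0.0326) were called in the cytoplasm and Hspb1 (0.56, FDR 0.0322) in the polysomes. Scaling by library totals moved the median log2 change of all genes from 0.042 to 0.19 in the cytoplasm, and 2588 genes were then called higher and 1363 lower instead of 2013 and 1922. Between N6L fractions it called 1762 higher and 3119 lower instead of 2559 and 2856. With 18 to 46 counts in the non-treated libraries, Hspa1a was the gene whose level counting error limited most.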

Other observations

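Hspa5 and Hsp90b1, chaperones of the endoplasmic reticulum, which are controlled mainly by the unfolded protein response, did not pass the test with N6L in either fraction. Hspa5 (BiP), its HSP70, stood at 420.5 ± 193 and 478 ± 23.3 CPM in non-treated and N6L cytoplasm (log2 change 0.19, FDR 0.710), and Hsp90b1 (GRP94), its HSP90, at 176 ± 76.9 and 199 ± 13.3 CPM (0.18, FDR 0.689). Their log2 polysome-to-cytoplasm ratios were below 0 in every culture of both groups, -0.83 ± 0.18 and -0.85 ± 0.44 for Hspa5 and -1.19 ± 0.33 and -1.39 ± 0.53 for Hsp90b1, a low ratio they have in common with Hsp90aa1.
Between the fractions of N6L cultures, 20 of the 61 other chaperone genes differed, 12 higher and 8 lower in polysomes, which is 32.8% against 39.0% of all genes. The lower ones included the HSP110 relatives Hspa4 (-0.89, FDR 0.0141) and Hspa4l (-1.42, FDR 0.00957), as Hsph1 did, and the higher ones Hspbp1 (0.81, FDR 0.00910) and Stub1 (0.85, FDR 0.0102). For the TI none of the 61 passed by edgeR or DESeq2, with 1 and 2 under an unadjusted p of 0.05, or 7 with the culture as a block.
The 5 genes outside the chaperone lists whose profile over the 12 libraries was most like the mean standardised profile of Hspa1a, Hspa1b, Dnajb1 and Hsph1 were Mbp, Txnip, Hist1h1b, Cyp4v3 and Jade2, with Pearson correlations of 0.957, 0.956, 0.950, 0.948 and 0.946. The 12 libraries share cultures in pairs and fall into treated and non-treated groups, so this is a description of likeness only. The mean profile was mostly that of Hspa1a and Hspa1b, which correlated with it by 0.983 and 0.962, against 0.437 for Dnajb1 and 0.418 for Hsph1, and Bag3, not part of it, by 0.860. Txnip, an inhibitor of thioredoxin, was the most abundant of the 5, at 254 ± 80.5 CPM in non-treated and 915 ± 179 CPM in N6L cytoplasm.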
